A study of Mus musculus with 25 samples.

Results

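Methylation of already methylated CpGs was compared between diet-induced obese mice and mice on a control diet. The set held 78933 autosomal CpGs of 283936 CpGs on chromosomes in the table. A CpG entered with an average coverage of at least 10 reads, a value in at least 3 libraries of each group and a mean methylation of at least 30% in the Control libraries. The Control mean chose the CpGs, so the Control levels, and any difference from them near 30%, are a description. The lower limit was set because 3 of the 4 Obese libraries read near 50% at CpGs that are unmethylated in Control.

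The tissue was the contralateral (9th) mammary fat pad of wild-type C57BL/6N mice, taken after E0771 mouse mammary cancer cells had been injected into the 4th fat pad. Obese mice had been fed a 60% high-fat diet (D12492), remained obese and were given the cells 25 weeks after the first randomization (n = 4, mice 22, 27, 28 and 40). Control mice received the control diet D12450J and the same injection (n = 5, mice 1, 2, 5, 10 and 13). All animals of both groups had therefore received tumour cells at another site, and the pad is a mixture of fat, epithelium, vessels and immune cells. A difference in the share of a cell type and a difference in methylation within its cells cannot be told apart. The other 16 libraries came from mice made obese on the same diet and then moved to weight loss: an unrestricted low-fat diet (LFD), a low-fat diet restricted by 30% (LFCR), a Mediterranean-style diet restricted by 30% (MCR) or intermittent restriction (ICR). The sample titles carry the word tumor and the labels name the cell line, whereas the tissue field and the series design give normal mammary tissue. The libraries carry different mouse numbers and were taken as separate animals, and the age and sex of the mice were not given in the labels.

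DNA methylation is the addition of a methyl group to cytosine, in mammals mostly where cytosine precedes guanine. Most CpGs of gene bodies and intergenic DNA are methylated, whereas CpG islands at active promoters are mostly not, and imprinted genes carry methylation on the copy from 1 parent. Reduced representation bisulfite sequencing cuts DNA with MspI, which cleaves at CCGG whether or not the inner CpG is methylated, so that each fragment begins and ends in a cut site. Bisulfite then converts unmethylated cytosines, which are read as thymine, and the level of a CpG is the share of reads with cytosine.

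Obese mice 27, 28 and 40 stood apart from the other libraries of both groups. At the 21187 tested autosomal CpGs under 5% in Control, Obese mice 27, 28 and 40 averaged 49.5%, 49.8% and 49.7%, and Obese mouse 22 averaged 1.39%. Control libraries lay between 1.04% and 1.25% at these CpGs. The same elevation was present in 1 library of another diet, LFD mouse 46, at 49.6%, while the other 15 weight-loss libraries lay between 0.884% and 1.54%. For this reason values of LFD mouse 46 are given beside those of the Obese mice. Whether these 4 libraries were prepared or processed differently from the others is not given in the sources used here and was not tested.

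The elevation followed the cut site. The promoter sequences of the reference genome (RefSeq, GRCm38.p6, 250 bases before to 50 after a gene start) covered 7451 autosomal CpGs of the table at the coverage limit, of which 4597 were the inner CpG of a CCGG and 2854 were not. CCGG was present in 52.8% of all 32851 promoter windows and in all 292 that held a CpG of the set also methylated in the weight-loss libraries. Each fragment begins and ends in a cut site, so this contrast comes largely from the method and is no measure of the elevation. The windows of Mcts2, Hoxa5 and Itsn2 are given. Mcts2, an imprinted gene that encodes a translation re-initiation factor, and Hoxa5, a homeobox transcription factor, hold several methylated CpGs on both kinds of site. Itsn2, a scaffold protein of endocytosis, holds 1 of the CpGs that passed the test. Capitals mark the CpGs of the set.
Mcts2, chr2:152686898-152687197, plus strand: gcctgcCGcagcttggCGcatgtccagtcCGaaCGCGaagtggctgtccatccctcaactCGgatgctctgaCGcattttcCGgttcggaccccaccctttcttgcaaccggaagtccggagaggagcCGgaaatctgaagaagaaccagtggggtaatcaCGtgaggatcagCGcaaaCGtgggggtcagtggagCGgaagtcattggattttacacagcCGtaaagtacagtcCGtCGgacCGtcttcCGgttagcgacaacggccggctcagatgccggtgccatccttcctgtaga
Hoxa5, chr6:52204538-52204837, minus strand: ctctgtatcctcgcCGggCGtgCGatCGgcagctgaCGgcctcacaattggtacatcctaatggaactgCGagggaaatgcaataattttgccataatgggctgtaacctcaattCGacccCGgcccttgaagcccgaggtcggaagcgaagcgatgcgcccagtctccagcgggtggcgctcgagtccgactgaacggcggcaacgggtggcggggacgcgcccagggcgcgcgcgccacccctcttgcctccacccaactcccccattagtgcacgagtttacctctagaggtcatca
Itsn2, chr12:4592758-4593057, plus strand: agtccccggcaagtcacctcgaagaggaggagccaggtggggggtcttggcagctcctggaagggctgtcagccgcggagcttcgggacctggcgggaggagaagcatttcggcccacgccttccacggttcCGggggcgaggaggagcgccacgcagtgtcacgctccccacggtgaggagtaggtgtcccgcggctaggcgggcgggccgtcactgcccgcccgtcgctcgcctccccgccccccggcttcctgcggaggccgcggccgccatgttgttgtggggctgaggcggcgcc

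Among CpGs under 5% in Control, 2659 lay inside CCGG. Their mean level was 0.769% in Obese mouse 22, 50.2% in Obese mouse 27, 51.3% in Obese mouse 28 and 50.9% in Obese mouse 40, against 0.661% to 0.773% in Control libraries, with 51.1% in LFD mouse 46. At the 71 such CpGs outside CCGG the means were 3.53%, 11.4%, 7.50% and 7.46% in Obese mice 22, 27, 28 and 40, against 1.15% to 3.81% in Control libraries, with 8.21% in LFD mouse 46. In these windows the elevation of the 4 libraries was thus far larger at the cut sites than outside them. The cause of this split was not tested. Outside the promoter windows it was not known whether a CpG lies inside CCGG, so the values of Obese mice 27, 28 and 40 at the other CpGs and genes described here could not be divided in this way.

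The split continued into the methylated range. At the 101 CpGs inside CCGG with a Control mean of 30% to 60%, Obese mice 27, 28 and 40 averaged 67.3%, 69.5% and 64.7% and Obese mouse 22 averaged 40.0%, against 38.9% to 48.5% in Control libraries. At the 220 CpGs of that range outside CCGG, Obese mice 22, 27 and 28 averaged 43.5%, 43.2% and 46.2%, within the Control range of 41.1% to 49.0%, and Obese mouse 40 averaged 31.8%. At 80% or more the sites lay closer, with 85.2% to 93.5% in Obese libraries and 86.9% to 91.3% in Control libraries inside CCGG, and 78.8% to 87.9% in Obese libraries and 86.5% to 90.4% in Control libraries outside it.

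**Figure D1:**
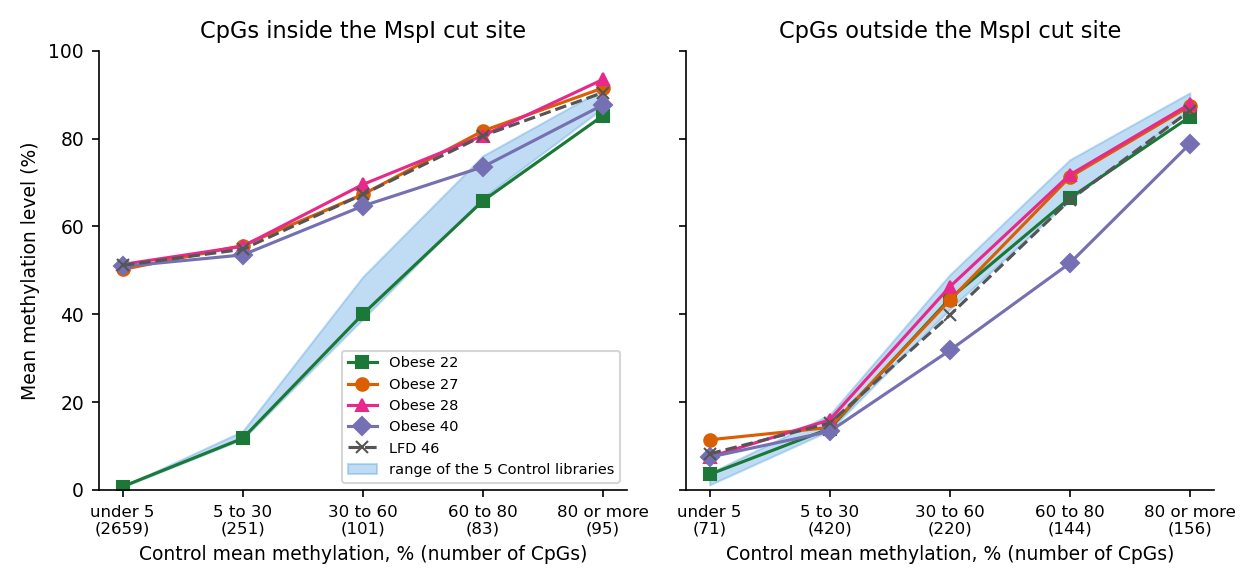
Mean methylation level (y axis, %) of CpGs in promoter windows, grouped by their Control mean (x axis, with the number of CpGs), inside the MspI cut site (left) and outside it (right). Lines are Obese libraries and LFD 46 and the band is the range of the 5 Control libraries. Inside the site Obese 27, 28 and 40 and LFD 46 start near 50%. Outside it they start above the band too, at 11.4%, 7.50%, 7.46% and 8.21%, against 1.15% to 3.81% in Control. From 5% upwards outside the site, Obese 22, 27 and 28 lie in or near the band. Obese 40 lies under it from 30% upwards.

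In the Mcts2 and Hoxa5 windows, which were chosen for holding CpGs on both kinds of site, the values were as follows. At the 3 Mcts2 CpGs inside CCGG the mean level was 72.7%, 88.7%, 84.9% and 67.0% in Obese mice 22, 27, 28 and 40, against 78.0%, 84.2%, 73.6%, 76.1% and 63.8% in Control mice 1, 2, 5, 10 and 13, with 84.9% in LFD mouse 46. At the other 15 Mcts2 CpGs it was 66.7%, 74.0%, 71.5% and 36.7% in the Obese mice, against 58.8%, 79.9%, 74.7%, 72.6% and 60.5% in the Control mice, with 64.3% in LFD mouse 46. The groups overlapped at both kinds of site, and Obese mouse 40 was the lowest of the 9 libraries outside CCGG. At the 2 Hoxa5 CpGs inside CCGG the levels were 47.6%, 78.9%, 75.9% and 61.4% in the Obese mice, against 63.1%, 65.1%, 59.3%, 44.2% and 53.6% in the Control mice, with 70.1% in LFD mouse 46. At the other 6 Hoxa5 CpGs they were 57.1%, 65.3%, 56.7% and 39.7% in the Obese mice, against 65.2%, 70.2%, 59.9%, 53.6% and 66.4% in the Control mice, with 54.5% in LFD mouse 46. No CpG of either window passed an adjusted p of 0.05 in limma.

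The mean level of methylated CpGs did not differ between the groups beyond the spread of the libraries. To keep both groups out of the choice, CpGs were taken with a mean of at least 30% over the 15 weight-loss libraries other than LFD mouse 46, and 39430 of these had a value in all 9 libraries. Their mean level was 73.6%, 79.3%, 79.8% and 72.4% in Obese mice 22, 27, 28 and 40, against 75.8%, 77.9%, 74.96%, 72.8% and 75.4% in Control mice 1, 2, 5, 10 and 13. Obese libraries lay on both sides of the Control range, mice 27 and 28 above it and mouse 40 just below it, and LFD mouse 46 had 78.4%. The group means were 76.3% ± 3.82 in Obese (SD, n = 4) and 75.4% ± 1.84 in Control (SD, n = 5). The difference of 0.916 points gave p = 0.643 in a two-sided exact permutation test, whose smallest possible p with 4 against 5 libraries is 0.00794. Without Obese mouse 27 the difference was -0.0997 points and without Obese mouse 28 it was -0.257 points. Obese mouse 22 alone differed from the Control mean by -1.81 points and lay inside the Control range.

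Split by site, the same comparison was larger inside the cut site and of opposite sign outside it. Over 148 methylated CpGs inside CCGG the level was 66.4%, 80.6%, 81.4% and 77.7% in Obese mice 22, 27, 28 and 40, against 66.2% to 72.8% in Control mice, a difference of 7.50 points (76.5% ± 6.96 in Obese, 69.0% ± 2.47 in Control, SD, exact permutation p = 0.0794). Over 270 outside CCGG it was 64.8%, 66.9%, 68.4% and 55.3% in the Obese mice, against 63.9% to 71.2% in the Control mice. That difference was -3.34 points (63.8% ± 5.90 in Obese, 67.2% ± 2.61 in Control, SD, exact permutation p = 0.333). Neither passed 0.05, and these windows were examined after the levels of the libraries had been seen. LFD mouse 46 had 80.7% inside and 63.1% outside CCGG.

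**Figure D2:**
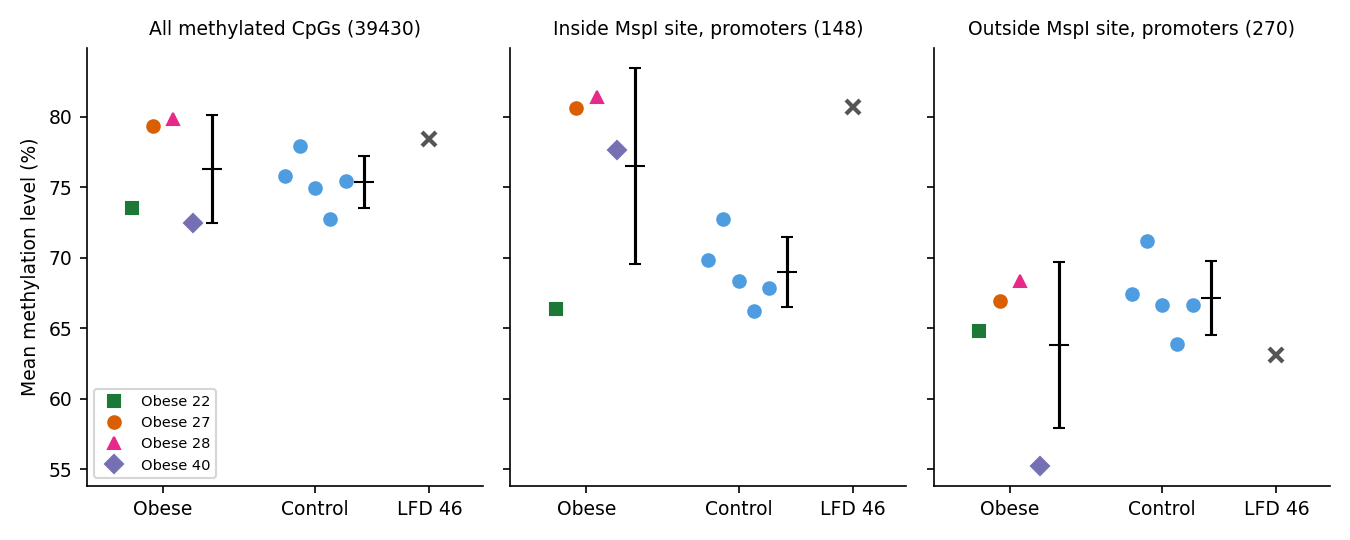
Mean methylation level (y axis, %, not starting at 0) per library over all methylated CpGs chosen on the weight-loss libraries and over those in promoter windows inside and outside the MspI cut site (number of CpGs in each title). Points are libraries and bars are the group mean and SD. Obese 27 and 28 are at 79.3% and 79.8% in the first panel and Obese 40 is at 55.3% in the third.

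The deviation of each Obese library from the Control mean was followed along the level of the CpGs in the 15 weight-loss libraries other than LFD mouse 46, so that neither group set the bins. At CpGs between 30% and 40% there, Obese mice 27 and 28 were on average 8.79 and 9.41 points above the Control mean, and Obese mice 22 and 40 deviated by -2.51 and -0.261 points. Between 60% and 70%, Obese mice 27 and 28 were 4.67 and 5.24 points above, and Obese mice 22 and 40 deviated by -2.40 and -3.95 points. Above 90%, Obese mice 22, 27, 28 and 40 deviated by -0.474, 0.571, 0.714 and -2.19 points. LFD mouse 46 deviated by 7.78, 3.63 and 0.418 points in the same 3 ranges and so ran beside Obese mice 27 and 28. Just inside the Control limit, at 30% to 32% in Control, the median deviations of Obese mice 22, 27, 28 and 40 were -1.22, 4.88, 4.94 and 4.77 points. Just outside it, at 28% to 30%, they were -1.10, 2.74, 4.30 and 5.16 points.

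**Figure D3:**
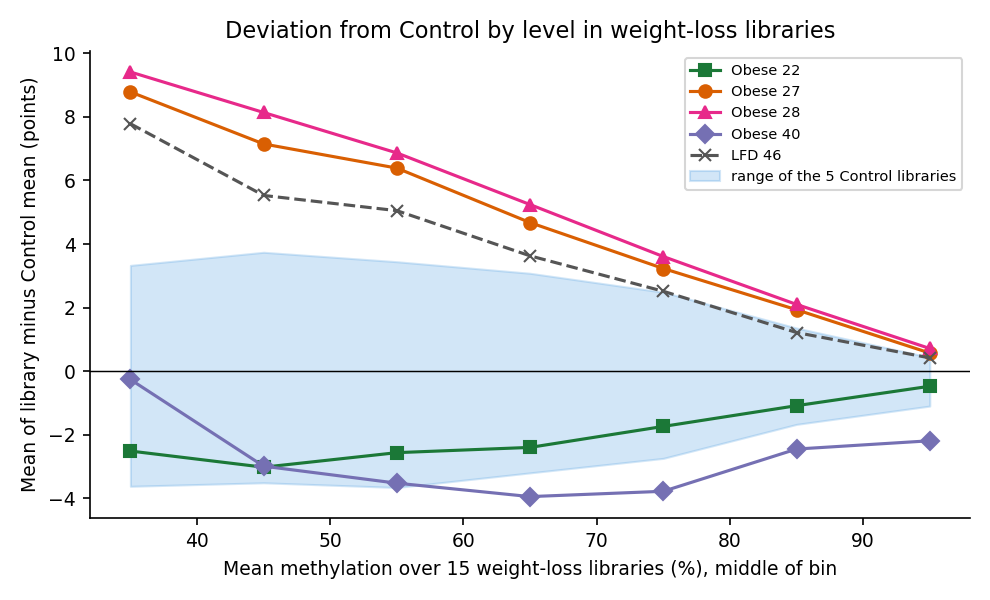
Mean deviation of each library from the Control mean (y axis, points) by the mean level of the CpGs over the 15 weight-loss libraries other than LFD 46 (x axis, bins of 10%). Lines are the 4 Obese libraries and LFD 46, and the band is the range of the Control libraries. Obese 27 and 28 and LFD 46 run together from 7.78 to 9.41 points in the lowest bin to under 1 point in the highest, and Obese 22 and 40 lie below 0 in all bins.

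Genomic context gave a similar order of the libraries. Open sea CpGs, far from any island, made up 73.4% of the set (57952 CpGs). There the median deviation from Control was -1.60, 3.24, 3.52 and -2.92 points in Obese mice 22, 27, 28 and 40, with 2.21 points in LFD mouse 46. In islands (5283 CpGs) it was -1.83, 1.10, 1.35 and -7.23 points, with -0.132 points in LFD mouse 46, so Obese mouse 40 was furthest below Control there. In shores (9578 CpGs) it was -2.18, 4.37, 4.59 and -3.05 points and in shelves (6120 CpGs) -1.84, 3.87, 3.85 and -2.53 points, with 3.13 and 2.74 points in LFD mouse 46. CpGs that the file annotates to gene bodies (64940), 1st exons (6817), 3′UTRs (4687) and 5′UTRs (1217) had median group differences of -0.0206, -0.801, -0.0460 and -0.682 points. Those annotated to the 2 classes upstream of the start, TSS1500 (168) and TSS200 (50), and to intergenic DNA (1054) had 0.738, 0.0743 and 0.427 points.

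Single CpGs were tested with limma on the methylation fraction, and p-values were adjusted by Benjamini-Hochberg over all 119303 CpGs tested. Of the 78933 members, 2 were higher and 3 lower in Obese at an adjusted p under 0.05, against 0.0302% higher and 0.00251% lower (0.0327% in all) over all tested CpGs. At an unadjusted p under 0.05, 4407 members (5.58%) were higher and 2149 (2.72%) lower, against 23.2% and 2.05% of all tested CpGs. The background share of higher CpGs comes mostly from tested CpGs outside the set, of which 57.7% were higher. Among members in promoter windows, 54 of 279 inside CCGG were higher and 6 lower at an unadjusted p under 0.05, while 2 of 520 outside it were higher and 16 lower. Of members with a value in all 4 Obese libraries, 1512 of 65449 (2.31%) had every Obese library above every Control library and 1033 (1.58%) had every Obese library below, against 5.49% and 1.21% of all such CpGs. LFD mouse 46 also lay above all Control libraries at 1269 of the 1506 higher CpGs with a value, and below them at 572 of 1012 lower ones. The same shares over all members were not computed, so these counts cannot be read as particular to these CpGs. Without Obese mouse 22, 5200 members were called higher and 994 lower in a table with 29934 calls. When the test without that mouse was fitted on CpGs methylated in the weight-loss libraries only, 2195 were higher and 149 lower. Leaving out any other single library left 0 or 1 higher and 1 or 2 lower. No member was called (0 higher and 0 lower) at an average coverage of at least 20 reads, with Obese mouse 22 as the only Obese library, or on all 25 libraries with a term for the 4 libraries near 50%. On CpGs with a value in all 9 libraries, 1008 were higher and 229 lower in a table with 13254 calls. When that test was fitted on CpGs methylated in the weight-loss libraries only, 3 were higher and 3 lower, with 7 calls in all.

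The called CpGs were as follows. At chr12:111445885, in the 1st exon of Tnfaip2, a gene induced by tumour necrosis factor, methylation was 66.7%, 70%, 70% and 76.9% in Obese mice 22, 27, 28 and 40, against 25.6%, 35.2%, 40.4%, 22.5% and 29.1% in Control mice 1, 2, 5, 10 and 13. All Obese libraries lay above all Control libraries, including Obese mouse 22. The difference was 40.4 points (SE 4.53, limma adjusted p = 0.0202). LFD mouse 46 had 71.2% there, and the other weight-loss libraries had 21.2% to 63.0%. The 14 other CpGs within 200 bases were tested too, none was called, and their median difference was 8.73 points. Of these, the CpG 6 bases upstream had 66.2%, 35.1%, 34.3% and 56.8% in the Obese mice, against 34.8% to 44.9% in Control mice. There Obese mice 22 and 40 lay above the Control range and Obese mice 27 and 28 did not.

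At chr15:82197927, annotated to a gene body with no gene name, the level was 83.3%, 100% and 100% in Obese mice 22, 27 and 28, with no value in mouse 40. It was 38.9%, 42.9%, 40.0% and 40.0% in Control mice 1, 2, 5 and 13 (difference 54.0 points, SE 5.30, limma adjusted p = 0.0300). LFD mouse 46 had 93.8%, and the other 11 weight-loss libraries with a value spread from 36.8% to 90%, a range that takes in the value of Obese mouse 22 and all 4 Control values. The average coverage of this CpG was 14.5 reads, over libraries that are not named. The 5 other CpGs within 200 bases were tested, none was called, and their median difference was 4.07 points.

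At chr13:29255606, which the file assigns to Cdkal1 as intergenic, the level was 18.2%, 5.56% and 8.33% in Obese mice 27, 28 and 40, with no value in mouse 22. It was 93.1%, 83.3%, 100%, 83.3% and 85.7% in Control mice (difference -78.4 points, SE 5.41, limma adjusted p = 0.00137). On all 25 libraries with a term for the 4 libraries near 50%, the difference turned to 14.7 points with an adjusted p of 0.906. Every Obese library with a value here carries that term. LFD mouse 46 had 6.90%, and the other 13 weight-loss libraries with a value had 80% to 100%. The low values thus occurred in the 4 libraries that stood apart at unmethylated CpGs, and in none of the others with a value. Of the 12 other CpGs within 200 bases, 6 were tested and none was called. The tested ones had a median difference of -8.39 points, from -39.9 to 10.3 points. The lowest was at chr13:29255734, 128 bases away, with 27.9%, 41.5% and 52.0% in Obese mice 27, 28 and 40. There Obese mouse 22 had 100%, Control mice 90.9% to 100% and LFD mouse 46 35.7%. At chr13:29255637, 31 bases away, Obese mice 27, 28 and 40 had 85.7%, 94.1% and 100%, against 81.8% to 100% in Control mice. Cdkal1 encodes an enzyme that modifies transfer RNA, and variants near its human counterpart are associated with type 2 diabetes.

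At chr6:47877896, in an island within the body of the zinc finger gene Zfp282, the level was 7.69%, 0%, 5.56% and 0% in Obese mice 22, 27, 28 and 40, against 95.7%, 80%, 71.4%, 75.9% and 43.8% in Control mice (difference -70.0 points, SE 8.74, limma adjusted p = 0.0414). This was the only called member at which LFD mouse 46, with 93.3%, lay within the Control range, and Obese mouse 22 was low as well. Obese mouse 22 had a value at 99.5% of CpGs on chromosomes. The lowest libraries outside the Obese group were LFD mouse 47 (27.8%), ICR mouse 112 (41.7%) and Control mouse 13 (43.8%). These had a value at 96.6%, 98.2% and 98.6% of CpGs, against 53.4%, 55.7% and 49.1% in Obese mice 27, 28 and 40. A link between this share and the level was not tested. The other weight-loss libraries ranged from 27.8% to 92.2%, and no other CpG within 200 bases could be tested. At chr12:4592890, in an island and the 1st exon of AC241534.1 as the file annotates it and the CpG in capitals in the Itsn2 window, the level was 19.2%, 37.8%, 50% and 44.1% in Obese mice, against 97.1%, 95.3%, 85.2%, 91.9% and 80.6% in Control mice. The difference was -52.2 points (SE 6.46, limma adjusted p = 0.0395). LFD mouse 46 had 49.5% and LFD mouse 47 had 42.9%, while the other weight-loss libraries had 67.3% to 95.2%. Of the latter the lowest was ICR mouse 112, and Control mouse 13 was the lowest Control library. This CpG lies inside CCGG, and no other CpG of the table lies within 200 bases. With the term for the 4 libraries, the differences at Tnfaip2, chr15:82197927, Zfp282 and AC241534.1 were 26.3, 39.1, -80.2 and -51.6 points, with limma adjusted p from 0.769 to 0.906.

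At the gene level, averaged over at least 5 methylated CpGs per gene, 4010 genes were tested with limma. No gene was higher and 1, Cdkal1, was lower at an adjusted p under 0.05, against a background of 0.0249% lower, which is that same gene. At an unadjusted p under 0.05, 196 genes (4.89%) were higher and 36 (0.898%) lower. In 86 genes (2.14%) every measured Obese library lay above every Control library, and in 30 (0.748%) below. The Cdkal1 level was 77.2%, 70.1%, 71.2% and 70.5% in Obese mice 22, 27, 28 and 40, against 93.5%, 89.9%, 93.3% and 88.1% in Control mice 1, 2, 5 and 13 (difference -19.0 points, SE 2.49, limma adjusted p = 0.0311). Its 7 CpGs span chr13:29255606-29255734, and without the called CpG the difference was -10.6 points with an adjusted p of 0.587. Obese mouse 22 had no value at chr13:29255606, chr13:29255637 and chr13:29255684, so its gene level rests on the other CpGs. LFD mouse 46 had 68.3%. The call was also lost without any 1 of Obese mice 27, 28 and 40 or Control mice 1, 2, 5 and 13, at differences that stayed negative. With the term for the 4 libraries the difference was -7.03 points, with a limma adjusted p of 0.721.

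The 12 genes of smallest p in the higher direction differed by 10.0 to 18.7 points, and all had an adjusted p of 0.588. They are named by that rule and none passed the test. Sun2, a nuclear envelope protein that links the nucleus to the cytoskeleton, had 75.2%, 80.4%, 82.3% and 81.8% in Obese mice 22, 27, 28 and 40, against 69.3%, 70.7%, 66.8%, 70.6% and 72.2% in Control mice. Mylk2, the myosin light chain kinase of skeletal muscle, had 64.9%, 69.5%, 67.9% and 78.7% in Obese mice, against 55.0% to 61.5% in Control mice. In Sun2 and Mylk2 the groups did not overlap, and LFD mouse 46 was also above all Control libraries, at 79.3% and 70.1%. On all 25 libraries with a term for the 4 libraries near 50%, the differences were 1.32 points at Sun2 and 5.14 points at Mylk2, against 10.0 and 12.4 points without it. Over CpGs with a Control mean of at least 50% they were 5.46 and 7.79 points. Selplg, which encodes the P-selectin ligand of leukocytes, had 73.3%, 78.2%, 79.5% and 87.7% in Obese mice, against 55.3% to 71.0% in Control mice, with 74.7% in LFD mouse 46. Recql5, a DNA helicase, had 77.2%, 80.5%, 83.8% and 88.9% in Obese mice 22, 27, 28 and 40, against 63.7% to 76.4% in Control mice. Smim5, which overlaps Recql5 and so can share its CpGs, had 77.3%, 87.4% and 91.3% in Obese mice 22, 28 and 40, against 61.5% to 77.0% in Control mice. LFD mouse 46 lay within the Control range at Recql5 and Smim5, with 72.9% and 68.7%. Slc22a18, a transporter of the imprinted cluster on distal chromosome 7, had 57.9%, 52.0%, 54.2% and 61.8% in Obese mice, against 37.4% to 51.3% in Control mice, with 47.7% in LFD mouse 46. The means of the other LFD mice and of LFCR, MCR and ICR mice were 49.2%, 53.9%, 55.0% and 51.4% there, above the Control mean of 44.3%. Igf2os, the antisense transcript of Igf2, had 66.3%, 70.6%, 74.97% and 78.4% in Obese mice 22, 27, 28 and 40, against 56.8% to 63.6% in Control mice, with 75.04% in LFD mouse 46. With the same term its difference was 3.73 points, against 10.5 points without it. Cdh15, the cadherin of muscle cells, had 61.7%, 60.6% and 72.3% in Obese mice 22, 27 and 40, against 52.2% to 56.1% in Control mice. The other 4 were Gm26935, Gm15401, Tbc1d22bos and the ribosomal protein gene Rps15. LFD mouse 46 was above every Control library in 8 of the 11 genes with a value. The same share over all genes was not computed.

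The 11 lower genes described here, taken by smallest p, differed by -7.85 to -19.0 points. Apart from Cdkal1 none passed, with adjusted p from 0.588 to 0.614. Hook2, an adaptor between vesicles and microtubules, had 63.6%, 60.0%, 73.7% and 56.3% in Obese mice 22, 27, 28 and 40, against 68.5% to 88.1% in Control mice. Obese mouse 28 lay inside the Control range, and LFD mouse 46 had 81.5%. The means of the other LFD mice and of LFCR, MCR and ICR mice were 64.6%, 54.2%, 45.1% and 59.3% at Hook2, all below the Control range. At Galnt13 the means of these groups were 84.7%, 87.8%, 82.3% and 86.4%, with LFCR and ICR inside the Control range. Galnt13, which starts O-linked glycan chains, had 76.5%, 84.1%, 78.7% and 70.1% in Obese mice, against 85.7% to 88.5% in Control mice. Diablo, an inhibitor of apoptosis inhibitors released from mitochondria, had 84.1%, 84.1%, 83.5% and 74.9% in Obese mice, against 88.4% to 93.3% in Control mice. Marc2, a reductase of the outer mitochondrial membrane, had 69.1%, 75.6%, 72.1% and 60.9% in Obese mice 22, 27, 28 and 40, against 78.5% to 86.0% in 3 Control mice. In Galnt13, Diablo and Marc2 the groups did not overlap, and LFD mouse 46 lay below the Control libraries as well, at 80.5%, 86.6% and 75%. Pmp22, a myelin membrane protein, had 72.4%, 78.6%, 71.6% and 66.1% in Obese mice 22, 27, 28 and 40, against 77.7% to 91.0% in 4 Control mice, with 81.8% in LFD mouse 46. Kcnn4, a calcium-activated potassium channel, had 53.8%, 47.4%, 40.1% and 34.6% in Obese mice 22, 27, 28 and 40, against 49.7% to 59.5% in Control mice, with 45.5% in LFD mouse 46. Its difference was -11.3 points, against -7.36 points with the term for the 4 libraries and -1.44 points for Obese mouse 22 alone. The Kcnn4 means of the other LFD mice and of LFCR, MCR and ICR mice were 42.8%, 33.7%, 23.4% and 41.4%, all below the Control range. The remaining 4 were the sorting receptor gene Sorcs3, the RNA helicase gene Ddx27, the zinc finger gene Scrt2 and Itpripl2. LFD mouse 46 was below every Control library in 8 of the 11, and the same share over all genes was not computed. The margin was small at Ddx27 (92.35%, lowest Control 92.54%) and Scrt2 (79.2%, lowest Control 79.6%).

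**Figure D4:**
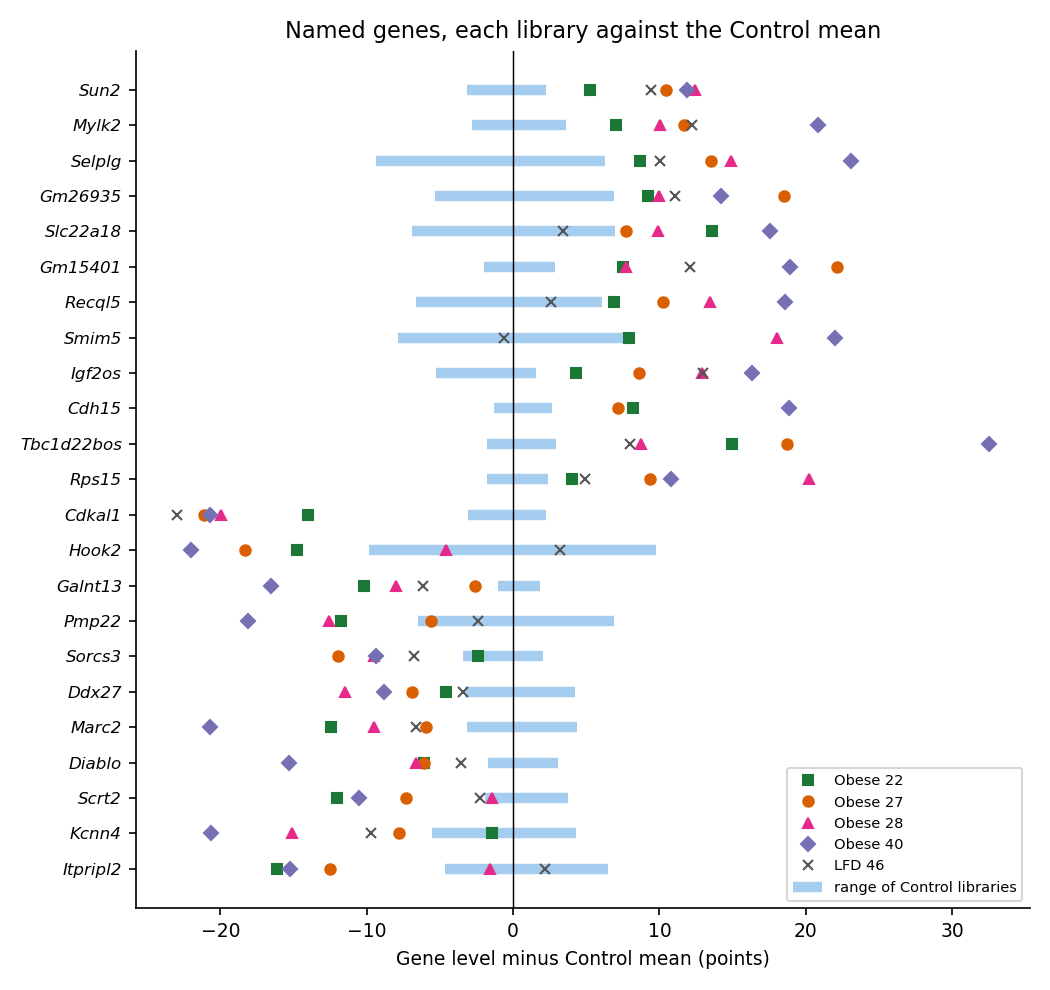
Gene level of each library minus the Control mean (x axis, points) for the 12 higher and 11 lower genes taken by smallest p (y axis). Points are Obese libraries and LFD 46, and bars are the range of the Control libraries. Obese 22 lies beyond the Control range on the same side in all 12 higher genes and 9 of the 11 lower ones, and LFD 46 does in 8 of 11 and 8 of 11; the genes were chosen on these differences.

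A total of 17 lists with 302 genes covered the cell types of a fat pad and pathways linked to obesity, and 83 of the genes could be tested. None was called, and 4 had an unadjusted p under 0.05, all higher, against 4.89% higher and 0.898% lower among all genes. These 4 were Gata3, Myog, Nos3 and Csf1r. Gata3, a master regulator of luminal mammary cells, had 67.1%, 82.2%, 73.5% and 72.6% in Obese mice 22, 27, 28 and 40, against 68.0%, 58.7%, 49.0% and 65.7% in Control mice 2, 5, 10 and 13 (difference 13.5 points, SE 4.29, limma adjusted p = 0.614), with 73.3% in LFD mouse 46. Myog, a muscle transcription factor, had 68.3%, 80.6%, 76.7% and 79.3% in Obese mice, against 67.7% to 69.2% in Control mice, with 80.9% in LFD mouse 46. Nos3, the nitric oxide synthase of endothelium, had 70.6%, 78.7% and 80.7% in Obese mice 22, 27 and 28, against 68.0% to 72.0% in Control mice, with 72.1% in LFD mouse 46. Csf1r, the receptor that maintains macrophages, had 92.2%, 96.9% and 96.2% in Obese mice 22, 27 and 28, against 87.9% to 92.4% in Control mice, with 82.5% in LFD mouse 46. Obese mouse 22 lay inside the Control range at all 4 of these genes.

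For the lists on fat itself, group differences are given beside the median of all genes, 0.423 points, and they average Obese libraries that differed from each other. Obese mouse 40 minus the mean of mice 27 and 28 had a median of 0.903 points over the adipocyte genes (2 of 4 below 0), -12.0 over the thermogenic genes (3 of 3), -7.67 over the lipid synthesis genes (6 of 6) and -10.1 over the insulin genes (5 of 6), against -6.93 points over all genes (3275 of 3760). Obese mouse 22 was below the Control mean in 3 of 4, 3 of 3, 5 of 6 and 5 of 6 genes of these lists, against 2892 of all 4010. The 4 tested adipocyte identity genes had a median of 0.870 points, among them Lipe, the hormone-sensitive lipase (2.80 points), Cidec, a lipid droplet protein (0.964 points), and Plin1, perilipin (0.777 points). The 3 thermogenic genes had a median of 0.918 points, with Cpt1b, which carries fatty acids into mitochondria, at -4.24 points, Prdm16, a regulator of brown fat identity, at 0.983 points and the channel gene Kcnk3 at 0.918 points. The 6 lipid synthesis genes had a median of 0.464 points, with 3.38 points at the regulator Srebf1, 1.44 points at Acacb, which makes malonyl-CoA, and -1.04 points at Dgat2, which completes triglycerides. The 6 insulin and PI3K-Akt-mTOR genes had a median of 0.0530 points, with -4.55 points at the mTOR partner Rptor, 1.49 points at the kinase Pik3cd and -1.51 points at the insulin receptor substrate Irs2.

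Immune and stromal lists had medians of 0.919 points (4 macrophage and myeloid genes), 1.05 points (4 lymphocyte genes), 0.734 points (3 inflammation genes), 0.662 points (5 endothelial genes) and -0.622 points (8 fibroblast and matrix genes). Irf8, a myeloid transcription factor, differed by 4.63 points, the signal transducer Stat3 by -0.607 points and the platelet-derived growth factor receptor Pdgfrb by -4.09 points. Epithelial lists had medians of 1.71 points (3 luminal genes) and -0.0249 points (2 basal genes), with the keratin Krt7 at -4.52 points and the claudin Cldn4 at 1.71 points. The 7 skeletal muscle genes had the highest median, 2.47 points, with Myog at 7.95 points, the glycogen phosphorylase Pygm at 4.68 points and the creatine kinase Ckm at 2.47 points. LFD mouse 46 was above every Control library at these 3 genes. Obese mouse 22 minus the Control mean had a median of -0.591 points over the 7 muscle genes and was below 0 in 4 of them. Over all genes that median was -1.73 points (2892 of 4010 below 0).

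The 6 Hox genes had a median of 1.22 points, with Hoxd3 at 3.59 points and Hoxa2 at 3.52 points. The 9 imprinted genes had a median of 1.33 points, with the cell cycle inhibitor Cdkn1c at -5.93 points, the noncoding RNA Peg13 at 8.80 points and the growth factor Igf2 at 3.03 points. Peg13 spread widely within the Obese group, with 39.6%, 58.6%, 75.1% and 76.4% in mice 22, 27, 28 and 40, against 41.7% to 61.6% in Control mice. The 4 DNA methylation genes had a median of 0.716 points, with Dnmt3l at 4.77 points, the methyltransferase Dnmt3a at 2.74 points and the demethylating enzyme Tet3 at -2.19 points. The 6 circadian genes had a median of 0.0551 points, with the clock repressors Nr1d1 at -5.38 points and Per2 at 5.68 points. The 4 tumour suppressors had a median of -1.57 points, with the Wnt inhibitor Sfrp1 at -4.23 points, Runx3 at -3.18 points and E-cadherin (Cdh1) at 2.93 points.

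Within the Obese group, mouse 40 differed from mice 27 and 28 more than these differed from each other. The median absolute difference per CpG was 6.25 points between mice 27 and 28 and 10.3 and 10.4 points between mouse 40 and each of them. It was 4.42 to 7.77 points between Control libraries, 5.04 to 6.76 points between Obese mouse 22 and Control libraries, and 5.86 and 6.19 points between Obese mice 27 and 28 and LFD mouse 46. By this measure mice 27 and 28 were about as close to LFD mouse 46 as to each other. Their distances from Control libraries were 6.66 to 9.21 points for mouse 27 and 6.28 to 9.07 points for mouse 28. The smallest in both cases was to Control mouse 2, at 6.66 and 6.28 points. Both mice were thus somewhat nearer to LFD mouse 46, at 6.19 and 5.86 points, than to any Control library. Distances to the other weight-loss libraries were not computed.

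The direction in which Obese mouse 40 departed was also found among weight-loss mice. Over 32872 CpGs with a value in all 25 libraries, Obese mouse 40 minus the mean of mice 27 and 28 correlated with the MCR mean minus the ICR mean (Pearson r = 0.518, Spearman rho = 0.448), although no library is shared. It also correlated with LFCR mice 63 and 67 minus LFCR mice 69 and 72 (r = 0.521), 2 pairs chosen after their mean levels were seen. Obese mouse 27 minus Obese mouse 28 gave r = 0.00550 and 0.00681 with the same differences. These are descriptions across CpGs, which are not independent and share base composition and depth. Of 798 genes at which MCR was at least 10 points below ICR, Obese mouse 40 was below mice 27 and 28 in 785, with a median of -11.9 points. Over all 2471 genes it was below in 2162, with a median of -7.21 points. Of 15 genes at which MCR was at least 10 points above ICR, it was above mice 27 and 28 in 13, with a median of 15.1 points.

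Genes at the ends of the MCR minus ICR range, ranked without the levels of Obese or Control libraries but after values were seen, are given as examples. Their CpGs had passed the Control mean limit and the need for values in both groups. Dusp8, a phosphatase of stress-activated kinases, had 83.9% in Obese mouse 40, against 59.8%, 41.2% and 37.6% in Obese mice 22, 27 and 28 and 27.2% to 58.5% in Control mice. MCR mice had 84.3% to 86.0% at Dusp8 and ICR mice 38.6% to 71.3%. Plekhh3 had 78.6% in Obese mouse 40, 50.1% to 54.5% in the other Obese mice and 39.8% to 54.4% in Control mice. H2-Oa, a chain of the antigen-loading regulator of B cells, had 78.1% in Obese mouse 40, 54.5% to 67.9% in the other Obese mice and 47.2% to 65.9% in Control mice. In the opposite direction, Dusp1, a phosphatase of MAP kinases, had 30.0% in Obese mouse 40, against 44.2%, 69.5% and 66.0% in Obese mice 22, 27 and 28 and 51.4% to 75.5% in Control mice. Tmem140 had 28.5% in Obese mouse 40, 59.7% to 71.3% in the other Obese mice and 67.1% to 78.5% in 3 Control mice. Dlg4, a scaffold protein of synapses, had 29.5% in Obese mouse 40, 54.1% to 77.0% in the other Obese mice and 52.6% to 68.9% in Control mice. Slc39a13, a zinc transporter, had 47.1% in Obese mouse 40, 68.1% to 87.4% in the other Obese mice and 58.6% to 75.3% in Control mice. MCR mice had 8.61% to 19.1% at Dusp1, 5.69% to 25.1% at Tmem140, 13.5% to 24.4% at Dlg4 and 28.8% to 30.3% at Slc39a13.

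**Figure D5:**
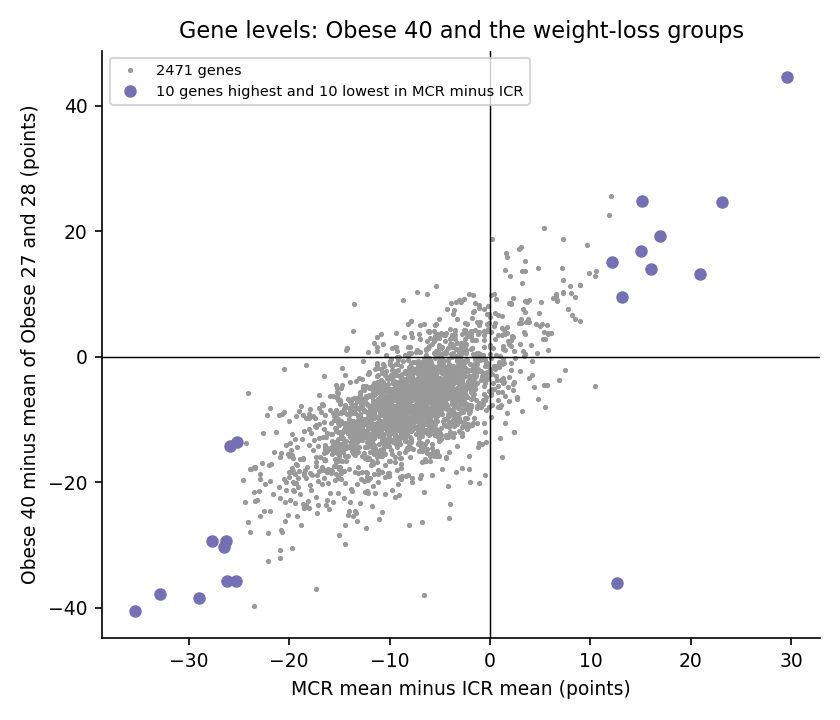
Gene level of Obese 40 minus the mean of Obese 27 and 28 (y axis, points) against the MCR mean minus the ICR mean (x axis, points). Grey points are 2471 genes and purple points the 10 highest and 10 lowest on the x axis. Of the 10 lowest all are below 0 on the y axis, and of the 10 highest 9 are above it, the exception being Gm26917.

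The authors' deposited table gives its own contrast between diet-induced obesity and control, with an obese level that equals Obese mouse 22 at 100% of CpGs. In the authors' deposited table, 33879 members had a q-value, of which 1 was higher and 10 lower at a q under 0.05, against 0.00751% higher and 0.0207% lower of all CpGs with a q. At the 10 lower CpGs, whose median difference in the authors' deposited table was -27.2 points, the mean of Obese mice 27, 28 and 40 was below LFD mouse 46 at 7. The same was true of 19709 of 33678 members with values. At Tnfaip2 chr12:111445885 the authors' deposited table gives a difference of 35.1 points with q = 0.226. At chr12:4592890 the authors' deposited table gives -72.5 points with q = 0.00163, and at Zfp282 chr6:47877896 it gives -67.3 points with q = 0.113. The authors' deposited table has no q for the called CpGs at Cdkal1 and on chromosome 15.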

How the data were processed

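RRBS was run on 25 mammary fat pads; MspI fragments between 40 and 170 bp were collected, per the labels' protocols. Reads were processed with Bismark against mm10, per the submitters' processing notes; versions and filters are not given in the sources used here. The authors deposited 1 table with, per CpG and library, a methylation level as a fraction, an average coverage signal over 21 libraries, group levels in percent, a difference in points, and for obese against control also a q-value and a p-value. Depth per library is not in the table, which leaves the error of a single value unknown. Where count models were planned, fractions were tested instead with limma 3.58.1 (equal weights, moderated variance, Benjamini-Hochberg). Levels are printed in percent.

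A gene level adds, to the average of the CpGs' means, how far the library deviates on average over its CpGs; it is given where the library has at least 0.5 of at least 5 CpGs that are members and have a weight-loss mean of at least 0.30 over at least 8 libraries. The Control mean is part of that choice. Genes named are those called with all Obese libraries beyond every Control library, then those of smallest p, 12 per direction, and for CpGs 10 per direction, of which the called ones are described; per list, up to 3 of smallest p. Of the lower genes named by this rule, 1 is not reported here. Members and lists were chosen with earlier results of these data known. Promoter sequences came from RefSeq (GRCm38.p6, the assembly that mm10 names), and 713 of 717 member CpGs with a weight-loss mean of 0.30 or more in them lay at a CG. The search read CCGG, which is its own reverse complement. Scripts were tested on simulated data. Alternatives covered coverage, scale, Control mean, missing values, libraries and site. The 38 CpGs outside chromosomes were left out.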

Additional observations from a re-analysis of the deposited data

Results flagged for a closer look

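At CpGs under 5% in Control, which the comparison leaves out, Obese mice 27, 28 and 40 read 49.5%, 49.8% and 49.7% and Obese mouse 22 read 1.39%, each above the Control libraries at 1.04% to 1.25%. Within the Obese group mouse 22 stood far from the other 3 there. Of 81 sets of 4 or 5 libraries examined, 8 held a library far from the rest. Most sets were genes and CpGs named for their p in these same libraries, so the usual rate of 1 in 20 does not apply. The count is a description.

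At the gene level, Obese mouse 22 had 77.2% at Cdkal1, apart from 70.1% to 71.2% in the other Obese mice. It had no value at the called CpG, so its level rests on fewer CpGs than theirs. Obese mouse 40 had 74.9% at Diablo, apart from 83.5% to 84.1% in the other Obese mice. Control mouse 1 had 56.8% at Igf2os, apart from 62.9% to 63.6% in the other Control mice. Among CpGs named by the rule, Obese mouse 22 had 69.0% at chr8:122267563, where the other Obese mice had 100%. Obese mouse 27 had 6.67% at chr9:54951073, near Psma4, where the others had 43.3% to 44.4%. Control mouse 13 had 96.0% at chr2:152083456, where the other Control mice had 100%, and 61.3% at chr19:36057392, where they had 90.6% to 98.2%.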

How the results depend on the processing

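No paired analysis was possible because the mouse numbers of the 2 groups do not overlap. The counts of members called higher and lower, 2 and 3, became 0 and 0 at an average coverage of 20, 0 and 0 with Obese mouse 22 as the only Obese library, and 0 and 0 on all 25 libraries with a term for the 4 libraries near 50%. On the arcsine scale 1 was higher, and at a Control mean of 0.50 or 0.70 none (0) was higher. They became 1008 and 229 on CpGs with a value in all 9 libraries and 1849 and 584 on all 25 libraries, where 13254 and 24752 CpGs of the table were called. Leaving out 1 library gave 0 to 5200 higher and 1 to 994 lower, the top of both without Obese mouse 22. Some settings were added after seeing the data. On CpGs methylated in the weight-loss libraries only, all 25 libraries gave 153 and 21, and Obese mice 27, 28 and 40 alone gave 2195 and 149. On such CpGs with a value in all 9 libraries the counts were 3 and 3. Inside CCGG 0 were higher and 1 lower, and outside it 0 and 0, which cover fewer CpGs. The gene called lower was lost (0) at a coverage of 5 or 20, with a value in all 9 libraries, on all 25 libraries with or without the term, with Obese mouse 22 alone and with at least 10 CpGs per gene. Leaving out 1 library gave 0 to 2 genes higher and 0 to 1 lower. The difference in mean level turned to -0.0584 points at a Control mean of 0.50, -0.532 at 0.70, -1.81 with Obese mouse 22 alone, -3.61 with the term for the 4 libraries (no test) and -3.34 outside CCGG. Without 1 library it lay between -0.257 and 2.20 points. With that term, 4 named CpGs changed sign: chr11:98350396 (-8.20 points), chr4:151242799 (-16.3), chr10:127664612 (-5.33) and chr13:29255606 (14.7). Obese mouse 22 had no value at these 4 CpGs, so every Obese library with a value carried the term. There the term rested on LFD mouse 46 against the other LFD mice. The changed signs therefore depend on that 1 library and are not differences for obesity apart from the term. Other causes of these changes were not tested. No depth per library limits single values further.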
